A study of Mus musculus with 9 samples.

Results

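The genes described here are 8 genes of the red blood cell other than the globins: 4 of its membrane and membrane skeleton (Slc4a1, Epb42, Sptb and Rhag), Alas2 and Ahsp, which serve haem and haemoglobin production, and the transcription factors Gata1 and Klf1. They were chosen by symbol, with earlier results of these data known. Of the 8, 7 matched a row among the 27179 gene IDs of the deposited count table. Ahsp was not analysed here. The table covers pneumospheres, which are spheres grown in suspension from dissociated lungs of E11.5 embryos of the mouse strain C57/B6. Spheres were collected after 3, 7 and 10 days in culture, and 3 libraries of poly(A) RNA were made at each time. No group was treated, and all were grown in the same way. Cells dissociated with trypsin were first left on ordinary culture plastic to let mesenchymal cells settle out, and the supernatant was grown on low-attachment plates under low oxygen in medium with B27, ITS, basic FGF, EGF and heparin, with splits on days 3 and 7. No label ties replicates to distinct cultures or litters, so p-values measure only the spread between these libraries, which may be technical.

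Red cells are filled with haemoglobin and have a membrane that bends without tearing, because a net of spectrin is tied to proteins that span the lipid bilayer. Slc4a1 encodes band 3, the anion exchanger that carries bicarbonate and anchors the net, Epb42 encodes protein 4.2, which binds band 3, Sptb encodes the erythroid beta spectrin chain, and Rhag encodes the Rh-associated glycoprotein. Alas2 encodes the erythroid form of 5-aminolevulinate synthase, the first enzyme of haem synthesis. GATA1 and KLF1 are DNA-binding factors that switch on these genes and the globins as red cells mature. At midgestation the mouse embryo carries large nucleated primitive red cells from the yolk sac in its vessels, those of the lung included, while definitive red cells are forming in the fetal liver.

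Upstream sequences of the genes whose window held a GATA match are shown because GATA1 binds that motif and because the windows of Alas2 and Epb42, which fell, and of Klf1, which was not called, all held it. RefSeq (build GRCm38.p6) gave a start for 6 of the 8 genes, Slc4a1 and Ahsp not among them. The 250 bases before that start were searched on both strands for 4 forms of the GATA motif (AGATAA and AGATAG, or either with T as its first letter), and for CCNCNCCC, the core of the CACCC boxes that KLF factors bind. A GATA match was found in 4 of 6 windows, and in 26.5% of 32851 windows of the same length over all genes. A CACCC match was found in 3 of 6, and in 45.9% of all windows. Alas2 held both, with 1 GATA match and 4 CACCC matches that partly overlap each other. Gata1 and Sptb held 3 CACCC matches each and no GATA match in this window. The 4 windows with a GATA match are printed 5′ to 3′ along the strand of the gene, with matches of either motif in capitals. They are chrX:150547167-150547416 on the plus strand for Alas2, chr2:121036878-121037127 on the minus strand for Epb42, chr8:84901732-84901981 on the plus strand for Klf1 and chr17:40810899-40811148 on the plus strand for Rhag.
Alas2: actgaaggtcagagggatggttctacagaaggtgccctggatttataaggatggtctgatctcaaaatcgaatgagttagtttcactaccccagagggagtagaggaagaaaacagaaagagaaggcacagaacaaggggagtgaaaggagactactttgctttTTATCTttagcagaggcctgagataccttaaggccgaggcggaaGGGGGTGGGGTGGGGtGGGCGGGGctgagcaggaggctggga
Epb42: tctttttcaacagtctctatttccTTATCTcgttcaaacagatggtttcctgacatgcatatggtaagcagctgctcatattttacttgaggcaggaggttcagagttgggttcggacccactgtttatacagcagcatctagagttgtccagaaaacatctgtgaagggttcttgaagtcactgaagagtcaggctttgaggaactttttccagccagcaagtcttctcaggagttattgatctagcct
Klf1: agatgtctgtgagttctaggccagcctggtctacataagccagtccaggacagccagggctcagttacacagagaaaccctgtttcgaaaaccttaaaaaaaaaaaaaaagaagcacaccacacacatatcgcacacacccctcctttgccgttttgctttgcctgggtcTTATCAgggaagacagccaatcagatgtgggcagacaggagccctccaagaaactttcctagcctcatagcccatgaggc
Rhag: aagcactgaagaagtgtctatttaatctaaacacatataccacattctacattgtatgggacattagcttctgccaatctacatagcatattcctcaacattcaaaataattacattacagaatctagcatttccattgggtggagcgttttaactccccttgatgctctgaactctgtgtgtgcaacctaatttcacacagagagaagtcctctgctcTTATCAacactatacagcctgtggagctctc
In these windows the GATA match began 86 bases before the start of Alas2 and 226 before that of Epb42. It began 80 bases before the start of Klf1 and 31 before the start used for Rhag. The starts used for Rhag and Gata1 lie inside the gene spans given below. The end of the Rhag window, with its GATA match, and the whole Gata1 window thus lie within those spans. A match is a run of letters and was not tested as a binding site.

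Library totals ran from 20716878 to 30466712 counts. Levels are given as CPM, counts per 1000000 after scaling by TMM factors, with mean ± SD over n = 3 libraries a day. A level of 3 counts, taken here as the bound for a count of 0, was 0.0987 to 0.149 CPM. Fold bounds built on it use the day 3 mean without its error. Counts without molecular identifiers bound counting error only. In day 3 replicate 2 a single unnamed gene ID took 6.79% of the counts, against at most 0.515% in the other libraries. The lung epithelial markers Nkx2-1, Foxa1 and Shh had no count in any library and Epcam reached at most 0.837 CPM, while the mesenchymal marker Vim stood between 616 and 926 CPM. In these bulk samples, fewer red cells and less RNA per red cell cannot be told apart.

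On day 3 the genes lay in a clear order of level per length of exon, a scale on which genes can be set side by side. Alas2 had 3.75 ± 0.500 CPM per kb and Slc4a1 3.39 ± 0.861 CPM per kb, and these ranges overlapped. Klf1 followed with 0.995 ± 0.184 CPM per kb, then Sptb with 0.387 ± 0.0654 and Epb42 with 0.212 ± 0.0354. These 3 neighbours did not overlap in any library. Gata1 (0.0999 ± 0.0401 CPM per kb) and Rhag (0.0896 ± 0.0407) came last and overlapped each other. Exon lengths are the union of exons in GENCODE release M21, which may not be the annotation used for counting.

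**Figure D1:**
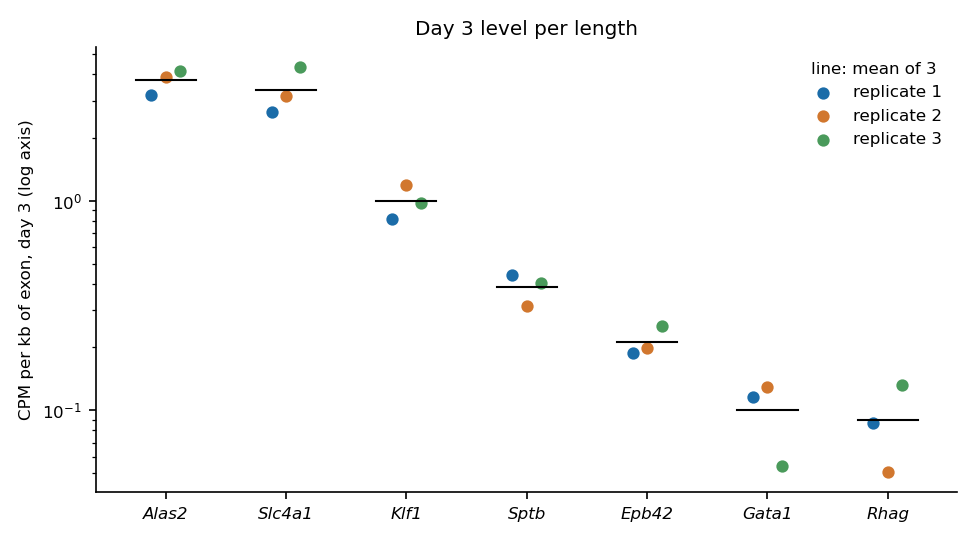
Day 3 level of each gene in CPM per kb of exon on a log axis, with 1 point per library and a line at the mean of 3. Alas2 and Slc4a1 lie above 2.6 CPM per kb in every library, and Gata1 and Rhag at or below 0.132.

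Of the 4 membrane genes, Slc4a1, Epb42 and Sptb fell by day 7, to different depths, and Rhag was too sparse to call. Slc4a1 (Entrez 20533, chromosome 11, 102348820 to 102365281 on mm10) had 321, 393 and 481 counts in the day 3 libraries. On day 7 it had 1, 0 and 0 counts, and on day 10 it had none. The day 3 values were 13, 15.5 and 21.2 CPM, so the groups stood apart by more than their whole range. The ratio of day 3 to day 7 was 1320 for Slc4a1 (95% counting interval 236 to 52100; day 7 lower, edgeR adjusted p = 4.22e-06), and on day 10 it was at least 133-fold lower than on day 3 (adjusted p = 1.95e-06), with 3 counts per library as the bound.

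Epb42 (Entrez 13828, chromosome 2, 121017891 to 121036877) had 25, 27 and 31 counts on day 3, then 2, 2 and 0 on day 7, and 3, 2 and 4 on day 10. All later libraries lay far below all day 3 libraries, and the later counts sit at the limit of detection. Its level on day 7 was 4.30% of that on day 3 (log2 change -4.39, SE 0.517, adjusted p = 0.000133). On day 10 it was 10.7% (log2 change -3.17, SE 0.453, adjusted p = 0.000223).

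Sptb (Entrez 20741, chromosome 12, 76580488 to 76710547) kept more of its day 3 level than Epb42 on day 7 and went on down to day 10. It had 5.38, 3.82 and 4.89 CPM on day 3, 0.921, 0.864 and 0.702 CPM on day 7, and 0.446, 0.280 and 0.423 CPM on day 10. No library of 1 day overlapped one of another. The level was 17.6% of the day 3 mean on day 7 (log2 change -2.49, SE 0.238, adjusted p = 3.52e-05) and 8.16% on day 10 (-3.60, SE 0.265, adjusted p = 3.49e-06). Of the 5 tested genes, Sptb alone was called lower on day 10 than on day 7 (log2 change -1.11, SE 0.291, adjusted p = 0.0437). That call ended in 13 of 18 alternative fits, among them all 9 fits that each left out 1 library (adjusted p of 0.0559 without day 10 replicate 1 to 0.128 without day 7 replicate 2). Besides red cells, brain and muscle also make beta spectrin from Sptb.

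Rhag (Entrez 19743, chromosome 17, 40811099 to 40844094) was too sparse for the main test. It had 5, 3 and 7 counts on day 3, 2, 2 and 1 on day 7, and 3, 0 and 4 on day 10. Day 3 and day 10 libraries overlapped. The day 3 libraries (0.118 to 0.308 CPM) lay above those of day 7 (0.039 to 0.0823 CPM), with all these counts near the limit of detection. In the fit with no filter on low counts Rhag was not called on day 7 (adjusted p = 0.171) or on day 10 (adjusted p = 0.319), both against day 3, so a change was not detectable at this depth.

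**Figure D2:**
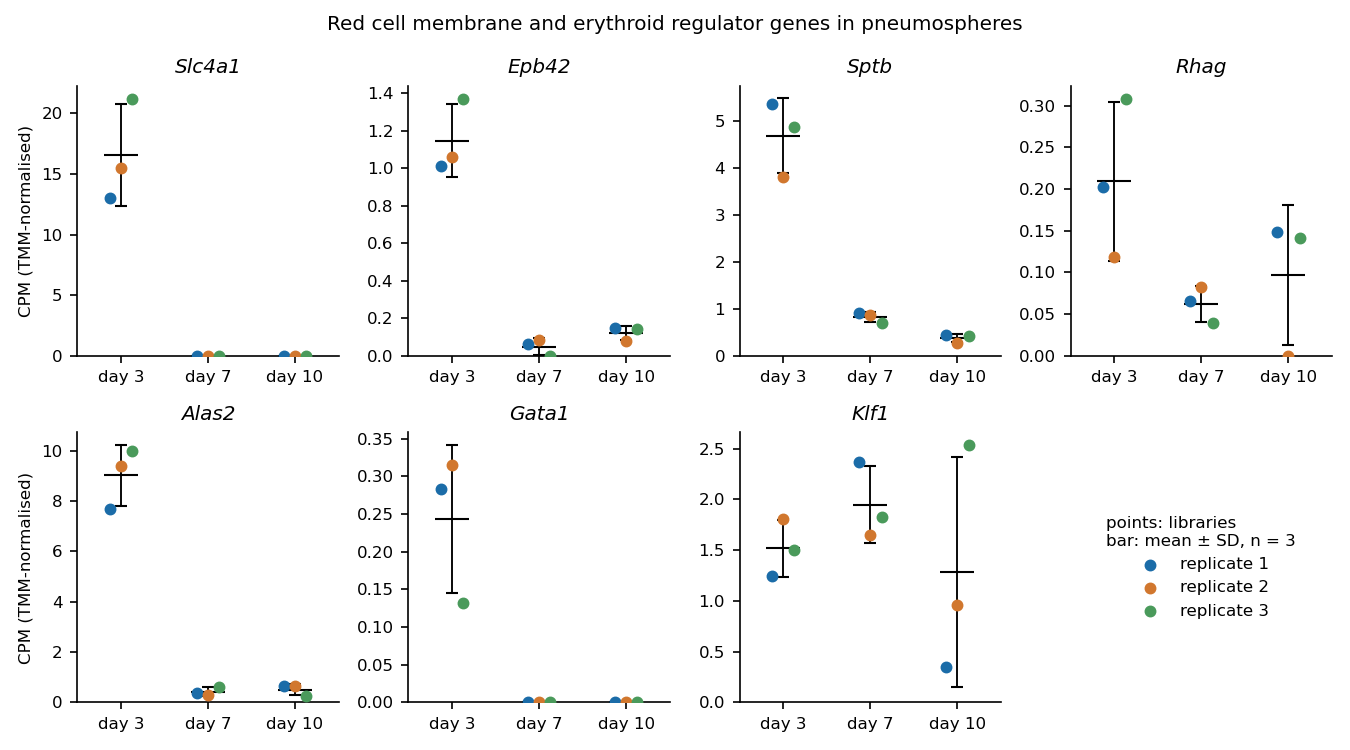
CPM of the 7 genes in every library on days 3, 7 and 10, with the mean and SD of 3 libraries; each panel has its own linear axis from 0. Slc4a1, Alas2, Epb42, Sptb and Gata1 are highest in the day 3 libraries, while the day 10 libraries of Klf1 spread from 0.347 to 2.54 CPM.

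Alas2 (Entrez 11656, chromosome X, 150547417 to 150570622) fell by day 7 and then held a small remainder. It had 7.68, 9.38 and 10.0 CPM on day 3. The later libraries had 0.362, 0.288 and 0.624 CPM on day 7 and 0.644, 0.640 and 0.247 CPM on day 10, and these overlapped. The level was 4.71% of the day 3 mean on day 7 (log2 change -4.40, SE 0.342, adjusted p = 1.11e-05) and 5.66% on day 10 (-4.17, SE 0.339, adjusted p = 6.57e-06). Day 10 against day 7 gave a log2 change of 0.23 (SE 0.416, adjusted p = 0.785). The test of the second step (day 10 against day 7) minus the first (day 7 against day 3) called 2 of 5 tested genes, Alas2 and Epb42 (8.03% of all genes, 2.06% positive, as here, and 5.96% negative). With 7 to 16 counts of Alas2 and 0 to 2 of Epb42 in the day 7 libraries, a second fall of the same size could not have been measured, so no difference between the steps is read from this test. Exons of Alas2 share 311 bases, 12.9% of its exonic length, with Apex2 on the other strand, a DNA repair nuclease gene at 18.9 ± 0.391, 16.7 ± 1.41 and 15.0 ± 1.35 CPM on the 3 days. Whether counting used strand is not given in the sources used here, so the remaining 7 to 16 counts of Alas2 per library cannot be told apart from reads of Apex2.

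Of the regulators, Gata1 was detected on day 3 alone, while Klf1 was detected in all 9 libraries. Gata1 (Entrez 14460, chromosome X, 7959260 to 7976663) had 7, 8 and 3 counts on day 3 and no count in any of the 6 later libraries. With 3 counts per library as the bound, it was at least 2.15-fold lower on day 7 and at least 1.95-fold lower on day 10, both against day 3. Its counts were below the filter of the main test. With no filter it was called lower on day 7 (adjusted p = 0.00956) and on day 10 (adjusted p = 0.00735).

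Klf1 (Entrez 16596, chromosome 8, 84901982 to 84905291) was the exception among the 5 tested genes. It had 1.25, 1.81 and 1.5 CPM on day 3, 2.37, 1.65 and 1.83 CPM on day 7, and 0.347, 0.960 and 2.54 CPM on day 10. The 3 days overlapped, and the highest and the lowest value of all 9 libraries were both on day 10. Its log2 change was 0.36 on day 7 (SE 0.509, adjusted p = 0.600) and -0.20 on day 10 (SE 0.524, adjusted p = 0.761), both against day 3. Day 10 against day 7 gave -0.56 (SE 0.512, adjusted p = 0.550). The last 2 values depended on which day 10 libraries were in the fit, and 1 of 18 alternatives gave a call in each comparison. Without day 10 replicate 3, Klf1 was called lower on day 10 than on day 3 (log2 change -1.17, adjusted p = 0.0304) and than on day 7 (-1.53, adjusted p = 0.0351), and without day 10 replicate 1 the change from day 3 was 0.22 (adjusted p = 0.661); over all alternatives the adjusted p for day 10 against day 3 ran from 0.0304 to 0.986. Klf1 supplied 3.80 to 5.67% of the summed counts of the 7 genes on day 3, 55.6 to 62.1% on day 7 and 20.0 to 72.7% on day 10. Whether exons of other genes overlap those of Klf1 was not tested.

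Taking the 7 genes as a group, 4 of the 5 tested genes were lower on day 7 than on day 3 (of all 14940 genes tested, 19% were called lower and 41.8% in either direction), namely Slc4a1, Alas2, Epb42 and Sptb. The same 4 were lower on day 10 than on day 3 (27.2% of all genes lower, 56.7% in either direction), and 1 on day 10 than on day 7 (4.1% lower, 8.51% in either direction). In the test for any difference among days 4 of 5 were called (53.5% of all genes). A gene so much higher on day 3 enters the test through its day 3 counts, so the tested genes are not a fair sample of the list. The list was itself chosen with earlier results of these data known, so these shares are a description only. Rarer was the drop of Slc4a1 to at most 3 counts in every day 10 library: of 14024 genes with at least 10 counts in each day 3 library, 116 (0.827%) did so, and of these 7 genes 5 had such day 3 counts and 1 reached that floor. This rule was chosen after the values were seen. The summed level of all 7 genes was 28.8, 32 and 39.4 CPM on day 3, 3.81, 2.96 and 3.2 CPM on day 7, and 1.74, 1.96 and 3.49 CPM on day 10. Without Klf1, a sum formed after the values were seen, the other 6 genes had 27.5, 30.2 and 37.9 CPM on day 3, 1.45, 1.32 and 1.37 CPM on day 7, and 1.39, 1.00 and 0.952 CPM on day 10.

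The globins, the most abundant red cell transcripts, also fell, and all 7 measured were called lower on both later days than on day 3. Of all genes tested, 19% were called lower on day 7 and 27.2% on day 10. As above, a gene so much higher on day 3 can enter the test through its day 3 counts alone. The summed level of 7 globins was 1050 to 1260 CPM on day 3, 4.41 to 6.38 CPM on day 7 and 0.176 to 0.400 CPM on day 10. The embryonic beta globin Hbb-y had 934 ± 90.3, 4.08 ± 1.13 and 0.123 ± 0.0680 CPM on the 3 days.

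**Figure D3:**
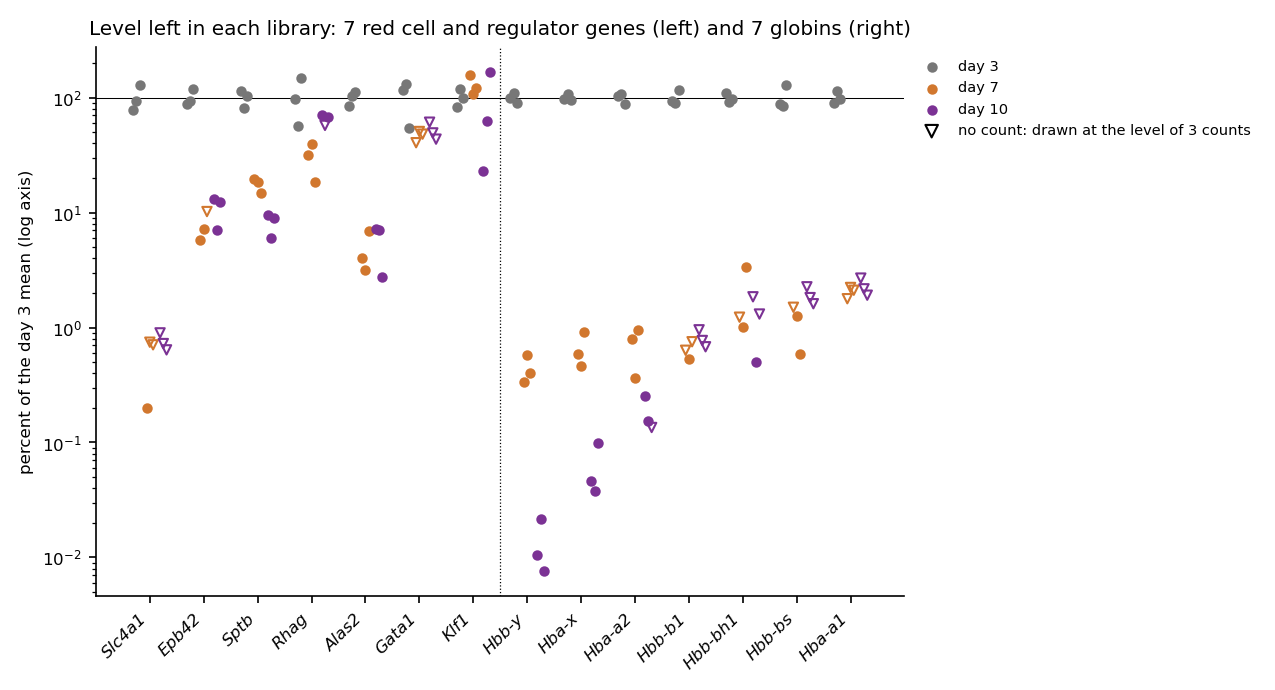
Level of each gene in each library as a percent of its day 3 mean, on a log axis, for the 7 red cell and regulator genes and for 7 globins; open triangles mark libraries with no count, drawn at the level of 3 counts. On day 10 the Hbb-y libraries lie at or below 0.0214%, those of Alas2 between 2.74% and 7.14%, and those of Klf1 between 22.8% and 167%.

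Other genes of the red cell membrane and its skeleton moved in both directions. Of 16 listed genes 14 were tested, and 7 fell and 2 rose on day 7 and likewise on day 10 against day 3 (of all genes, 19% fell and 22.8% rose on day 7, 27.2% and 29.5% on day 10; median log2 change -0.60 and -0.94, against 0.00 and 0.00 over all genes). Kel, the Kell blood group protein, had 87, 84 and 68 counts on day 3, 1, 2 and 0 on day 7 and none on day 10. On day 10 it was at least 26.2-fold lower (adjusted p = 1.46e-05), and on day 7 it was lower as well, with a day 3 to day 7 ratio of 87.9 (29.7 to 429 by counting error at 95%; adjusted p = 4.07e-05). Ermap, an erythroid membrane protein, fell to 0.120 ± 0.109 CPM on day 10, against 1.43 ± 0.789 on day 3 (log2 change -3.49, SE 0.687, adjusted p = 0.00166). Xk, the partner of Kell in the membrane, fell to 0.885 ± 0.265 CPM, against 2.48 ± 0.172. Epb41, which encodes protein 4.1 and is also used in many other cells, fell by less, to 101 ± 9.35 CPM on day 10, against 197 ± 6.19 on day 3 (-0.96, SE 0.1). The skeleton genes Add2, an adducin, and Ank1, an ankyrin, rose on day 10 (0.94 and 0.88; adjusted p = 0.000108 and 0.0287). The call of Ank1 ended without day 3 replicate 3 (adjusted p = 0.0869) or without day 3 replicate 1 (0.0507). On day 7 the 2 that rose were Add2 and Aqp1, the water channel of red cells and of some endothelia, which stood at 5.76 ± 0.760, 43.5 ± 20.6 and 6.31 ± 2.02 CPM on the 3 days.

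The general enzymes of haem synthesis and iron supply did not follow Alas2. All 14 were tested; 4 fell and 3 rose on day 7, 4 fell and 4 rose on day 10, against day 3 (19% and 22.8% of all genes on day 7, 27.2% and 29.5% on day 10), and the median was -0.08 on both days. Alad, which acts directly after Alas2 in the pathway, rose to 90.9 ± 10.9 CPM on day 10, against 45.4 ± 2.62 on day 3 (log2 change 1.00, SE 0.0964, adjusted p = 1.86e-05). Fech, which inserts iron in the last step, rose to 65.2 ± 1.32 CPM, against 42.0 ± 2.75 (0.63, SE 0.0725). Steap3, a ferrireductase, rose by 3.10 (SE 0.503). Tfrc, the transferrin receptor that red cell precursors use heavily, fell to 43.8 ± 20.2 CPM on day 10, against 94.0 ± 12.7 on day 3 (-1.10, adjusted p = 0.0144, and 0.0859 without day 10 replicate 3). Alas1, the form of Alas2 that other cells use, was named after its value was seen and stood at 40.2 ± 2.03, 51.9 ± 5.20 and 48.0 ± 3.08 CPM on the 3 days, higher on day 7 (0.37, adjusted p = 0.00830).

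Of 17 listed relatives of the 8 genes that other cells use, 15 were tested, and more than not rose. On day 7, 8 rose, and on day 10, 9 rose, against day 3 (22.8% and 29.5% of all genes were called higher; medians 0.37 and 0.41). Tgm2, a transglutaminase of the family to which protein 4.2 belongs, rose to 85.7 ± 22 CPM on day 10, against 12.5 ± 3.76 on day 3 (log2 change 2.79, SE 0.283). Klf4 and Klf2, Krüppel-like factors of epithelium and endothelium, rose by 3.61 (SE 0.303) and 2.18 (SE 0.419). Gata4, a factor of heart and gut, fell on day 10 (-0.40, adjusted p = 0.0499); this call ended in 6 of the 9 fits that each left out 1 library (day 3 replicates 1 and 3, day 7 replicates 1 and 3, and day 10 replicates 1 and 2; adjusted p of up to 0.157).

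Erythroid transcription factors, cofactors and receptors moved both ways. Of 14 listed 13 were tested; 6 fell and 5 rose on day 7, and 6 fell and 4 rose on day 10, against day 3 (19% and 22.8% of all genes on day 7, 27.2% and 29.5% on day 10; median -0.07 and -0.30). The 6 that fell were the same on both days: Tal1, Myb, Kit, Lmo2, Lyl1 and Nfe2. Tal1, a partner of GATA1 in DNA-bound complexes, had 4.85 ± 1.62, 0.240 ± 0.119 and 0.0902 ± 0.0466 CPM on the 3 days (day 10 against day 3 -5.61, SE 0.470, adjusted p = 7.85e-06). Myb, a factor of blood progenitors, had 7.11 ± 1.95, 2.27 ± 0.531 and 0.594 ± 0.216 CPM. Kit, the stem cell factor receptor, fell to 6.87 ± 2.81 CPM on day 10, against 29.5 ± 2.57 on day 3. Epor, the erythropoietin receptor, went the other way and rose to 14.1 ± 8.15 CPM on day 10, against 2.49 ± 0.0911 on day 3 (2.5, SE 0.527, adjusted p = 0.00289); its day 7 call ended in 6 of the 9 fits without 1 library. Several of these genes are also expressed in endothelium, mast cells or megakaryocytes.

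Among 14 other late erythroid genes 8 were tested, and 4 fell and 2 rose on day 7 and likewise on day 10, against day 3 (19% and 22.8% of all genes on day 7, 27.2% and 29.5% on day 10; median -0.24 and -0.03). Car2, a carbonic anhydrase, fell to 0.694 ± 0.274 CPM on day 10, against 4.69 ± 0.830 on day 3 (log2 change -2.76, SE 0.295). Bpgm, which makes the 2,3-bisphosphoglycerate of red cells, fell by 1.14 (SE 0.168), and Prdx2, a peroxide-reducing enzyme abundant in red cells, fell by 0.64 (SE 0.0893). Blvrb, a biliverdin reductase, rose by 0.86 (SE 0.0971). The 6 untested genes had few counts, summed here over the 3 libraries of a day. Trim10 had 37, 1 and 2 counts on days 3, 7 and 10, Hemgn 26, 1 and 1, Cldn13 6, 0 and 0, Trim58 4, 1 and 0, and Pklr 1 on each day. Car1, another red cell carbonic anhydrase, had no count in any library.

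**Figure D4:**
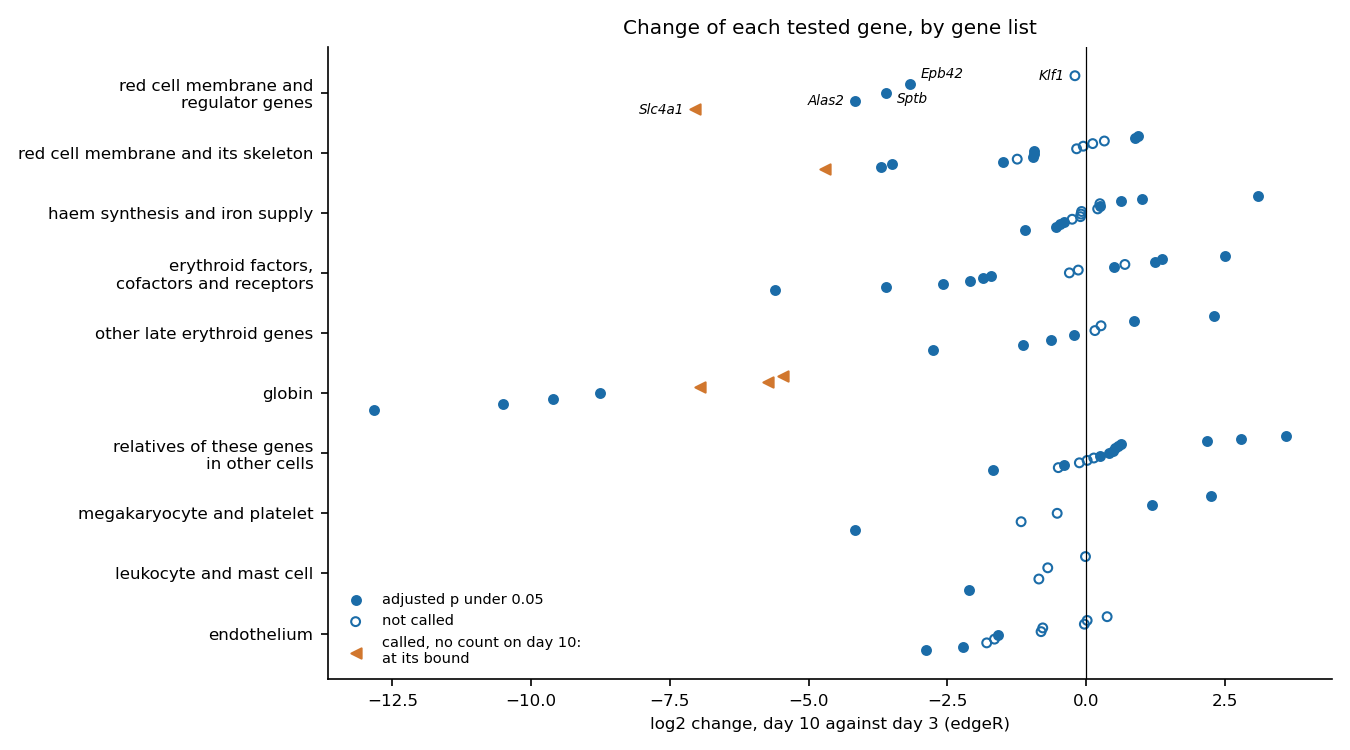
Log2 change of each tested gene for day 10 against day 3, by gene list; filled points were called at an adjusted p under 0.05, open points were not, and triangles mark genes with no count on day 10, drawn at their bound. Slc4a1, Alas2, Sptb and Epb42 lie left of -3, and Klf1 lies near 0.

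Markers of other blood and vessel cells were still measured on day 10. Against day 3, 19% of all genes tested were called lower and 22.8% higher on day 7. On day 10 these shares were 27.2% and 29.5%. Of 9 megakaryocyte genes 5 were tested; on day 10 against day 3, Ppbp fell (log2 change -4.16, SE 0.593) and Gp1bb and Itga2b rose (2.25 and 1.18). Their summed level was 16 to 19.3 CPM on day 3, 22.7 to 29.2 on day 7 and 23.9 to 44.8 on day 10. Of 10 leukocyte and mast cell genes 4 were tested, and Laptm5 fell on day 10 (-2.11, SE 0.603, adjusted p = 0.0128). Their summed level was 6.47 to 9.69, 4.51 to 7.88 and 3.08 to 6.74 CPM on the 3 days, and Fcer1a had no count. Of 10 endothelial genes, all tested, Emcn and Flt1 rose on day 7 against day 3 (0.73 and 0.86; adjusted p = 0.000728 and 0.028, the call of Flt1 ending in 5 of the 9 fits without 1 library), while Erg and Tek fell on both later days and Kdr on day 10 (-2.21, SE 0.562, adjusted p = 0.00922, and 0.063 without day 10 replicate 3). The summed endothelial level was 186 to 229, 255 to 350 and 132 to 150 CPM. Most of that sum came from Emcn (means of 111, 185 and 109 CPM) and Kdr (59.2, 91.7 and 12.8 CPM). Pecam1, Cdh5, Tie1, Esam and Cldn5 were not called for any pair of days. The part of these cells in the values of the red cell genes was not tested.

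Over all 9 libraries, 13181 tested genes with at least 1 CPM on day 3 were ranked by Pearson's r of log2 CPM with the mean standardised pattern of the 5 tested genes. The 10 most alike were Mapk1ip1l, Meis1, Uspl1, Hpgd, St3gal1, Tiam1, Tal1, Epha4, Pdcd11 and Ube4b, with r of 0.996 for the first and 0.990 for the last. The measure ignores the size of a change. Mapk1ip1l stood at 210, 152 and 142 CPM on the 3 days, while Tal1 stood at 4.85, 0.240 and 0.0902 CPM. Of the 5 genes themselves, Slc4a1, Sptb, Alas2 and Epb42 had r between 0.914 and 0.978 with that mean, and Klf1 had 0.301. Each of these 5 genes is itself part of that mean, so its r is partly fixed in advance.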

How the data were processed

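The authors deposited a table of read counts per gene for 9 libraries of poly(A) RNA (TruSeq kit), keyed by Entrez ID. The submitters' processing notes name featureCounts and mm10; nothing in the labels or files names the aligner, annotation, strand setting or handling of multi-mapping reads. Of 27179 IDs, 25275 took a symbol from RefSeq GRCm38.p6. The members and gene lists were chosen with earlier results of these data known. Library totals of 20716878 to 30466712 counts set the precision.

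From the deposited counts, genes were kept by filterByExpr (14940 tested), scaled by TMM and fitted over all 9 libraries with the robust quasi-likelihood test of edgeR 4.0.16 in R 4.3.3, with Benjamini-Hochberg adjustment over all genes tested and a threshold of 0.05. The contrasts were the 3 pairs of days, any day, and the second step (day 10 against day 7) minus the first (day 7 against day 3). The test was checked on simulated data. Genes named from the other lists were the up to 4 of each with the largest called change for day 10 against day 3 and at least 1 CPM on the higher day; Alas1, Add2, Ank1, Aqp1, Gata4, Emcn and Flt1 were named after their values were seen. Values of 1 listed relative are not reported here. Counting intervals are exact binomial at 95%. Alternatives were other scalings, other filters, DESeq2 1.42.0, the replicate number as a block, only the 2 days compared, and leaving out libraries.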

Additional observations from a re-analysis of the deposited data

How the results depend on the processing

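Over 18 alternatives, 4 or 5 of the 7 genes were called lower on day 7 and on day 10 than on day 3. The fifth was Gata1 in the fit with no filter on low counts. On day 10 it was also Klf1 in the fit without day 10 replicate 3. Klf1 was not called on day 7 against day 3 in any alternative. The fall of Sptb on day 10 against day 7 (1 gene) became 0 with library size alone, no filter, only the 2 days compared, and both day 3 replicate 2 and day 10 replicate 3 left out, and 0 to 1 over fits without 1 library, where the 1 was Klf1. Calls of the second step minus the first (2 genes), from which nothing is read, were 1 to 2 without 1 library. Relatives lower on day 10 than on day 3 (2) were 1 with no filter and with only the 2 days, and 1 to 3 without 1 library. Megakaryocyte genes lower on day 7 (1) were 4 with no filter, 2 with both libraries left out and 1 to 3 without 1 library; on day 10 (1) they were 2 with library size alone, DESeq2, the replicate block or both left out, 3 with no filter and 1 to 4 without 1 library. Leukocyte genes lower on day 7 (0 in edgeR) were 1 with library size alone or only the 2 days and 0 to 1 without 1 library; on day 10 (1) they were 2 with library size alone, no filter, DESeq2 or the replicate block, 0 with both left out and 1 to 2 without 1 library. Endothelial genes lower on day 7 (2) were 1 to 2 without 1 library, and on day 10 (3) they were 6 with the replicate block. Without 1 library, the log2 change of Klf1 for day 10 against day 3 ran from -1.17 (without day 10 replicate 3) to 0.22 (without day 10 replicate 1), and that of Alas2 for day 10 against day 7 from 0 (just below it, without day 10 replicate 2) to 0.59. Causes were not tested.

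Same-numbered libraries correlated at -0.069 to 0.433 in their deviations from the day means, 5 of 9 pairs over 0.1, and libraries of different number at -0.356 to 0.221. As a hint of pairing, 6 of 9 libraries were closest to their own number, and the submitters' library numbers run on across days within a replicate. No label says that a number marks a shared culture or batch, and not every pair passed 0.1, so the numbers were not taken to pair the libraries. With library size alone, 43.5% of calls for day 10 against day 3 were higher, against 52% with TMM, and 39.3% against 51.8% for day 10 against day 7.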
